A study of Homo sapiens with 12 samples.

Results

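The genes for autotaxin (ENPP2), for the phospholipases PLA1A and LIPH, and for the lysophosphatidic acid receptors LPAR1, LPAR2, LPAR3 and LPAR6 were followed across 4 conditions of HK-2 cells, an established line of human renal proximal tubule epithelium. These 7 genes were picked by name from 26334 listed genes, with the levels of all 4 conditions already known, so their levels and differences are given as a description, without p-values. The cells carried a doxycycline (Dox)-inducible PRCC-TFE3 gene, a fusion found in translocation renal cell carcinoma, and were kept in medium with puromycin and blasticidin S. The conditions, with 3 independent biological replicates each and 48 h long, were Dox with the CDK8 and CDK19 inhibitor MSC2530818 (100 nM), Dox alone in DMSO, the inhibitor alone, and DMSO vehicle. Poly(A) RNA was sequenced, and the deposited values are FPKM, fragments scaled by transcript length and library. Every group carried the inducible gene, so what Dox does by itself and what the fusion does cannot be told apart, and whether the line is 1 clone is not given in the sources used here.

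Lysophospholipids are signalling lipids with a single fatty acid chain. Autotaxin is a secreted lysophospholipase D that makes lysophosphatidic acid (LPA) from lysophosphatidylcholine, LIPH is a membrane-associated phospholipase that makes LPA from phosphatidic acid, and PLA1A is a secreted phospholipase that makes lysophosphatidylserine from phosphatidylserine exposed on cells. LPA acts on G protein-coupled receptors: LPAR1, LPAR2 and LPAR3 belong to the EDG family, which also holds the sphingosine 1-phosphate (S1P) receptors, and LPAR6 belongs to the P2Y-related family. In kidney, LPA signalling is known for its part in tubular injury and fibrosis.

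The start regions of the phospholipase genes are shown because TFE3 and its relatives bind E-box sequences, CACGTG and the variant CATGTG, and the fusion keeps the DNA-binding part of TFE3. RefSeq windows (GRCh38.p14) of 300 bases, from 250 before to 50 after a start site, were found for 6 of the 7 genes, 12 windows in all, and ENPP2 had no entry. Capitals mark an E-box on either strand. The windows are those of the 2 PLA1A start sites, chr3:119597635-119597934 and chr3:119600021-119600320 on the plus strand, and of LIPH, chr3:185552539-185552838 on the minus strand, each written 5′ to 3′ along the gene.
PLA1A upstream start: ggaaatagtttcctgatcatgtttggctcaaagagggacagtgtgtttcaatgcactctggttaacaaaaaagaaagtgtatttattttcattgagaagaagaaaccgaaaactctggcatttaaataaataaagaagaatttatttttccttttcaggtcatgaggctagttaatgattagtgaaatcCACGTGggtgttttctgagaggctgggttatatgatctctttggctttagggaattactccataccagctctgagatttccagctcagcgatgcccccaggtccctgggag
PLA1A downstream start: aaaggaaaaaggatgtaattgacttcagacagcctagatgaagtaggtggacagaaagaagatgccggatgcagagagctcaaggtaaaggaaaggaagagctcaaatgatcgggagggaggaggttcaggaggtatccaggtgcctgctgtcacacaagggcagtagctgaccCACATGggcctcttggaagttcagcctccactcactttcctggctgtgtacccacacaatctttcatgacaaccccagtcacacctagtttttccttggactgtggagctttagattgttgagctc
LIPH: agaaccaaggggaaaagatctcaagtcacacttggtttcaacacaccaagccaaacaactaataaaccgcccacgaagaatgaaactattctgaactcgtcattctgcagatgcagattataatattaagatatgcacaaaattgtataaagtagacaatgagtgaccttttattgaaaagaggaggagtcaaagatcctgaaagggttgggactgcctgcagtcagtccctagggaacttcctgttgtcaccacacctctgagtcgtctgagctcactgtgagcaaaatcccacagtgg

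PLA1A had a CACGTG that began at -61 from its upstream start site, and the downstream window had CACATG, the reverse complement of CATGTG, at -76. The other 10 windows, LIPH included, held neither sequence. Of 35116 windows of this length, 7.26% held CACGTG (its own reverse complement) and 11.1% held CATGTG or CACATG. At such shares, 1 window with each among 12 is not unusual, so nothing is read from the PLA1A matches. A longer palindrome with CACGTG at its centre was also searched. It was in 0.353% of the 35116 windows and in none of the 12 here, those of PLA1A included. A match of letters describes the window and does not show binding.

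In GRCh38 (GENCODE 29), ENPP2 lies on chromosome 8 (119557086 to 119673453, minus strand), PLA1A and LIPH on chromosome 3 (119597842 to 119629811, plus strand, and 185506262 to 185552613, minus strand), LPAR1 on chromosome 9 (110873263 to 111038458, minus), LPAR2 on chromosome 19 (19623668 to 19628930, minus) and LPAR3 on chromosome 1 (84811602 to 84893213, minus). LPAR6, on chromosome 13 (48389567 to 48444704, minus), lies within RB1, which runs on the opposite strand. The library kit was stranded, but whether strand was used in quantification is not given in the sources used here.

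FPKM sums ran from 429208 to 473950 per library and 11952 to 12333 genes per library reached 1 FPKM, and the read depth is unknown. TFE3 stood at 84.2 ± 3.1 FPKM with Dox and inhibitor, 149.7 ± 4 with Dox, 27.8 ± 1.7 with inhibitor and 35.8 ± 3.1 in vehicle (SD, n = 3 each). How reads of the introduced fusion were assigned is not stated, so this value may hold both resident and introduced transcripts. Of 16 renal tubular epithelial markers, 7 averaged at least 1 FPKM, among them PAX8 (92 FPKM in vehicle) and GGT1 (39.7), whereas 8, among them the mature proximal tubule genes LRP2, CUBN, AQP1, ANPEP and SLC34A1, stayed under 1 in every library. The summed FPKM of these 16 ran from 733.4 to 783.1 with Dox and inhibitor, 624.6 to 647.5 with Dox, 904.6 to 1030 with inhibitor and 724.9 to 840.6 in vehicle, so it moved with the treatments, and its part in the results was not tested. KRT8 and KRT18 weighed most in this sum, at 295.2 and 209.3 FPKM in vehicle and 222.6 and 150.3 with Dox. Of the 7, only DPP4 (34.68 against 16.65 FPKM) and GGT1 (48.4 against 39.7) were higher with Dox than in vehicle. The lysosomal glycoprotein gene CD68, on the leukocyte list, stood at 31 FPKM with Dox and inhibitor, 56 with Dox, 27.9 with inhibitor and 38.6 in vehicle. The other 6 leukocyte markers, and all endothelial and adipocyte markers listed, stayed under 1 FPKM in every library, as did 5 of 6 fibroblast markers. In bulk RNA a lower level per cell and fewer expressing cells cannot be told apart.

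Differences are given on the log2(FPKM + 1) scale, ± SE from 1 limma model of all 12 libraries, and understate the change of low genes, so ratios of mean FPKM stand beside them. A gene was tested when it reached 1 FPKM in at least 3 of the 12 libraries, which 12649 genes did, and was called at a Benjamini-Hochberg adjusted p under 0.05 over all of them. ENPP2, PLA1A, LIPH, LPAR2 and LPAR3 passed that filter, PLA1A only through libraries with Dox, and LPAR1 and LPAR6 did not.

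ENPP2 was the most strongly lowered of these genes by the inhibitor and stood highest with Dox alone. Its FPKM was 4.54, 5.36 and 4.93 with Dox and inhibitor, 15.06, 13.85 and 15.05 with Dox, 2.28, 2.35 and 2.4 with inhibitor, and 9.26, 10.12 and 11.33 in vehicle. The 4 groups did not overlap, and their order from high to low was Dox, vehicle, Dox with inhibitor, inhibitor. The inhibitor mean was 0.229 times the vehicle mean (-1.74 ± 0.08), a difference that ranked 11 from the lowest among the 12649 tested genes. Among Dox-treated cells, the mean with inhibitor was 0.337 times that without (-1.4 ± 0.08, rank 37 from the lowest). The Dox mean was 1.43 times the vehicle mean (0.48 ± 0.08), and the Dox mean under inhibitor was 2.11 times that of inhibitor alone (0.83 ± 0.08, rank 47 from the highest). The Dox difference with inhibitor minus that without it was 0.35 ± 0.11 on this scale, which was not called, and 0.53 with a pseudocount of 0.1. Cells with Dox and inhibitor together thus held less ENPP2 RNA, 4.94 ± 0.41 FPKM, than vehicle cells at 10.2 ± 1.04 FPKM (SD, n = 3 each), with no library of either group in the range of the other.

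**Figure D1:**
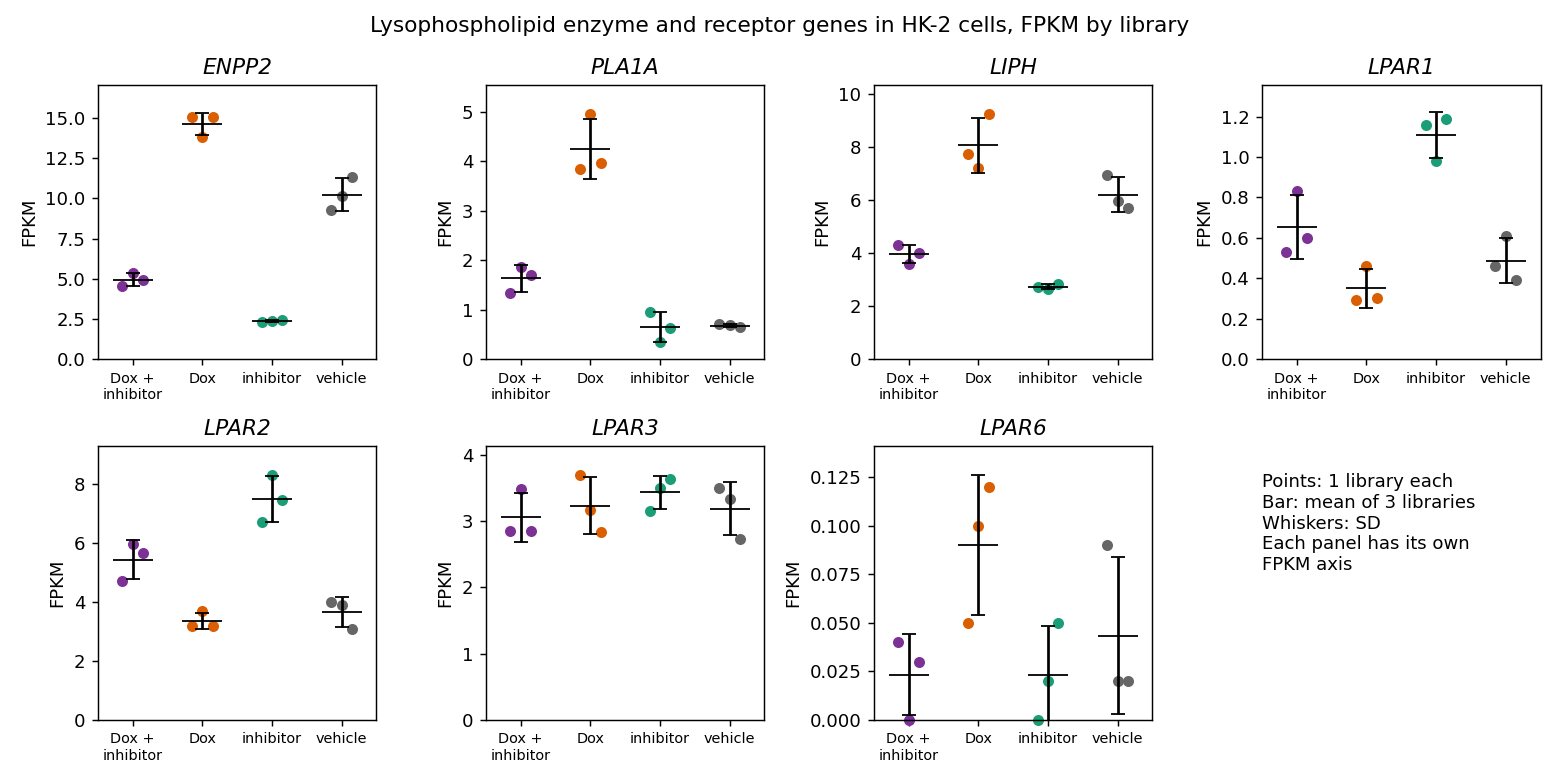
FPKM (vertical axis, 1 scale per panel) of the 7 genes in each library (points) of the 4 conditions, with the mean (bar) and SD (whiskers) of 3 libraries. ENPP2 and LIPH share the order Dox, vehicle, Dox with inhibitor, inhibitor, PLA1A is high only where Dox was given, and LPAR1 and LPAR2 are highest with inhibitor alone.

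PLA1A was the gene with the largest Dox difference, and that difference was smaller with the inhibitor present. Its FPKM was 1.34, 1.86 and 1.69 with Dox and inhibitor, 3.84, 4.95 and 3.97 with Dox, 0.95, 0.35 and 0.63 with inhibitor, and 0.71, 0.68 and 0.64 in vehicle. Every library with Dox lay above every library without it, and the inhibitor and vehicle groups overlapped. The Dox mean was 6.29 times the vehicle mean (1.64 ± 0.13, rank 23 from the highest), and with inhibitor present the ratio was 2.53 (0.69 ± 0.13). The Dox difference with inhibitor minus that without it was -0.95 ± 0.19, rank 89 from the lowest. In Dox-treated cells, the mean with inhibitor was 0.383 times that without (-1 ± 0.13), whereas without Dox the ratio was 0.951 (-0.04 ± 0.13). TFE3 itself, given above, was also lower with Dox and inhibitor than with Dox alone, and its part in the PLA1A difference was not tested. With a pseudocount of 0.1 in place of 1, the PLA1A difference was 2.48 for Dox without inhibitor and 1.29 with it.

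LIPH had the order of groups seen for ENPP2, over a narrower range. It stood at 4.3, 3.59 and 4.01 FPKM with Dox and inhibitor, 7.75, 7.21 and 9.24 with Dox, 2.71, 2.66 and 2.83 with inhibitor, and 6.96, 5.95 and 5.71 in vehicle. No neighbouring groups overlapped, although the lowest Dox library was close to the highest vehicle library. The inhibitor mean was 0.44 times the vehicle mean (-0.95 ± 0.1), and in Dox-treated cells the ratio was 0.492 (-0.86 ± 0.1). Dox differences were smaller, with a ratio of 1.3 without inhibitor (0.33 ± 0.1) and 1.45 with it (0.41 ± 0.1). The Dox differences of LIPH with and without inhibitor were 0.08 ± 0.14 apart.

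The balance among the enzyme transcripts followed from these shifts. ENPP2 stood at 2.88 to 3.39 times the PLA1A level (FPKM, which is per length) with Dox and inhibitor, 2.8 to 3.92 times with Dox, 2.4 to 6.71 times with inhibitor, and 13 to 17.7 times in vehicle. The vehicle libraries thus lay above all 9 others in this ratio. PLA1A, its denominator, was under 1 FPKM without Dox, at 0.64 to 0.71 in vehicle and 0.35 to 0.95 with inhibitor. The ratio of 6.71 came from the library at 0.35, so these ratios are imprecise. ENPP2 against LIPH gave ratios of 1.06 to 1.49 with Dox and inhibitor, 1.63 to 1.94 with Dox, 0.841 to 0.884 with inhibitor, and 1.33 to 1.98 in vehicle, so that LIPH was the more abundant of the pair only in the inhibitor group.

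**Figure D2:**
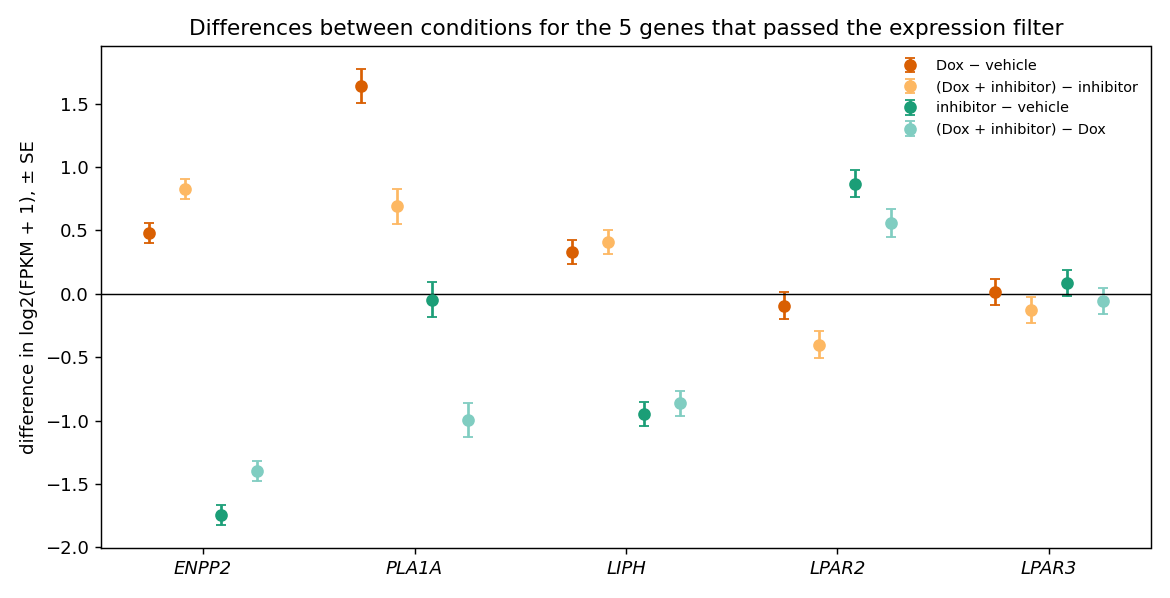
Differences in log2(FPKM + 1), ± SE, for the 5 genes that passed the expression filter, in the Dox comparisons (orange) and the inhibitor comparisons (green). The 3 enzyme genes lie above 0 for Dox and, apart from PLA1A without Dox (-0.04), below 0 for the inhibitor, while LPAR2 lies above 0 for the inhibitor and LPAR3 near 0 throughout.

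Among the receptors, LPAR2, which couples to several G protein classes, was higher with the inhibitor. Its FPKM was 4.71, 5.96 and 5.66 with Dox and inhibitor, 3.19, 3.69 and 3.2 with Dox, 6.73, 8.32 and 7.47 with inhibitor, and 4.01, 3.91 and 3.07 in vehicle. The inhibitor group lay above the Dox with inhibitor group, which lay above the Dox and vehicle groups, and those last groups overlapped. The inhibitor mean was 2.05 times the vehicle mean (0.87 ± 0.11), and in Dox-treated cells the ratio was 1.62 (0.56 ± 0.11). Under inhibitor, the Dox mean was 0.725 times that of inhibitor alone (-0.4 ± 0.11), and without inhibitor the Dox and vehicle means were 3.36 and 3.66 FPKM (-0.09 ± 0.11). The difference between these Dox differences was -0.31 ± 0.15.

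LPAR3, an EDG family receptor like LPAR2, showed no separation of groups. Its libraries ran from 2.85 to 3.49 FPKM with Dox and inhibitor, 2.84 to 3.7 with Dox, 3.16 to 3.64 with inhibitor, and 2.74 to 3.5 in vehicle. All 4 ranges overlapped, and its differences lay between -0.13 ± 0.1 and 0.08 ± 0.1 in the 4 comparisons of groups. An SE of 0.1 leaves differences of that order undetectable in these libraries.

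LPAR1, the receptor most studied in fibrosis, was low throughout and highest with the inhibitor alone. Its FPKM was 0.53, 0.83 and 0.6 with Dox and inhibitor, 0.29, 0.46 and 0.3 with Dox, 1.16, 0.98 and 1.19 with inhibitor, and 0.46, 0.61 and 0.39 in vehicle. The inhibitor group lay above the other 3, and Dox with inhibitor overlapped vehicle, which overlapped Dox. The inhibitor mean was 2.28 times the vehicle mean, the mean with Dox and inhibitor was 1.87 times that of Dox alone, and under inhibitor the Dox mean was 0.589 times that of inhibitor alone. LPAR6, the receptor tied with LIPH in human hair growth, was close to absent, at 0 to 0.04 FPKM with Dox and inhibitor, 0.05 to 0.12 with Dox, 0 to 0.05 with inhibitor, and 0.02 to 0.09 in vehicle. At such values no order of groups was read for LPAR6.

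Among all LPA receptor genes, LPAR5, a P2Y-related receptor outside the 7 genes, was expressed at the level of LPAR2 and LPAR3 in vehicle. It stood at 3.34 to 4.55 FPKM with Dox and inhibitor, 3.27 to 4.74 with Dox, 4.43 to 5.68 with inhibitor, and 3.31 to 3.73 in vehicle, and rose with the inhibitor without Dox (0.44 ± 0.13, adjusted p = 0.019 in limma), a call that ended without inhibitor replicate 2. LPAR4 did not exceed 0.05 FPKM. The summed FPKM of LPAR1 to LPAR6 was 13.1 ± 0.93 with Dox and inhibitor, 10.9 ± 0.35 with Dox, 17.2 ± 1.15 with inhibitor, and 10.9 ± 1.04 in vehicle (SD, n = 3 each). LPAR2 made up 41.5% ± 4.1 of it with Dox and inhibitor, 30.9% ± 2.6 with Dox, 43.6% ± 2.1 with inhibitor, and 33.5% ± 1.9 in vehicle. In inhibitor libraries the levels ranked LPAR2 above LPAR5 above LPAR3 with no overlap, whereas in vehicle libraries the ranges of these 3 overlapped.

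**Figure D3:**
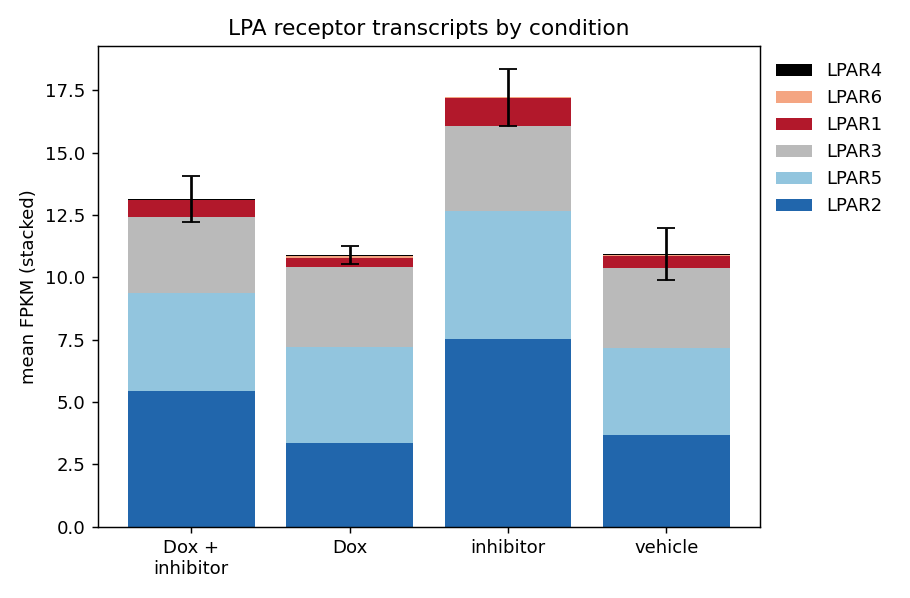
Mean FPKM of the 6 LPA receptor genes stacked by condition (vertical axis from 0), with whiskers for the SD of their sum over 3 libraries. The inhibitor column reaches 17.2 FPKM against 10.9 in vehicle, and LPAR2 is the largest segment in every column except Dox, where LPAR5 is.

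In calls across all genes, 3 of the 5 tested genes were called for Dox against vehicle, each as higher, against 17.9% of all tested genes (10.6% higher and 7.31% lower). For Dox with inhibitor against inhibitor alone 3 were called higher and 1 lower, against 18.2% (12.2% and 6.06%). For inhibitor against vehicle 1 was called higher and 2 lower, against 38% (11.7% and 26.3%), and for inhibitor with Dox against Dox alone 1 higher and 3 lower, against 32.1% (11.3% and 20.8%). In the interaction, the Dox difference with inhibitor minus that without, PLA1A alone was called, as lower, against 2.82% of all genes (0.909% higher and 1.91% lower). Nothing is read from these counts, because the genes were chosen with these values known, and the comparisons share samples. The median difference of the 5 was 0.33, 0.41, -0.04, -0.86 and -0.14 in this order of comparisons, and that of all tested genes was 0.04, 0.08, -0.12, -0.08 and 0.05. Calls were higher genes in 59.2%, 66.7%, 30.8% and 35.3% of cases in the first 4 comparisons, but in 41.6%, 33.7%, 54.9% and 54.1% after median-ratio scaling and 43.3%, 41%, 49.7% and 50.3% after quantile normalization. Median-ratio scaling moved the median of all genes for inhibitor against vehicle to -0.01, a shift of about 0.1, and on that scale ENPP2 stood at -1.65, LIPH at -0.85 and LPAR2 at 0.97.

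The call of LIPH for Dox against vehicle ended under either rescaling (0.27 and 0.24), with no filter, and without any one of vehicle replicates 2 or 3, Dox replicates 1 or 3, inhibitor replicate 2 or Dox with inhibitor replicate 3 (0.24 to 0.35). Its call under inhibitor ended after quantile normalization (0.29) and without inhibitor replicate 2 or Dox with inhibitor replicate 3 (0.4 each). That of LPAR2 under inhibitor ended with no filter and without inhibitor replicate 2 or Dox with inhibitor replicates 1 or 3 (-0.43 to -0.32). The interaction call of PLA1A ended with a pseudocount of 0.1 (-1.19) and without any one of vehicle replicate 2, Dox replicates 2 or 3, or Dox with inhibitor replicates 1 or 3 (-0.99 to -0.86).

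The genes whose levels ran most closely with each of the 5, by Pearson r of log2(FPKM + 1) over the 12 libraries among all tested genes, are given as a description, since these libraries share their 4 groups. For ENPP2 they were ZFP91 (r = 0.993), PARP9 (0.992) and FRMD5 (0.992). For PLA1A they included FAM21C (0.981) and RAB29 (0.979), with FAM21C at 25.9 FPKM with Dox and inhibitor, 37.1 with Dox, 18.5 with inhibitor and 20.1 in vehicle. LIPH ran with TACC2 (0.991), SMPD1 (0.987) and NECAP1 (0.986), and LPAR2 with ZMIZ2 (0.988), MTMR3 (0.978) and MEGF6 (0.976). The best match of LPAR3 was LRRC75B at r = 0.771, followed by MORC2-AS1 (0.754) and TRIM39-RPP21 (0.74).

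Other genes of lysophospholipid metabolism, listed from general knowledge, were tested in the same limma model, and the adjusted p-values below are two-sided and over all genes. The counts in each list stand beside a background of 10.6% of all tested genes called higher and 7.31% lower for Dox alone, and 11.7% higher and 26.3% lower for inhibitor without Dox, shares whose balance turned with rescaling as given above. Of 9 tested among 16 other lysophospholipid-producing or phospholipase genes, 1 rose and 1 fell with Dox alone, and none rose and 1 fell after either rescaling. LCAT, the plasma lecithin-cholesterol acyltransferase, which releases lysophosphatidylcholine, fell (-0.32 ± 0.07, adjusted p = 0.0097), and the lysosomal phospholipase gene PLA2G15 rose (0.32 ± 0.09, adjusted p = 0.03), a call that ended under either rescaling and without any 1 Dox replicate or vehicle replicate 2 or 3. With inhibitor against vehicle 3 of the 9 rose, also after either rescaling, led by the endothelial lipase gene LIPG, at 2.38 FPKM with inhibitor and 0.76 in vehicle (0.94 ± 0.11, adjusted p = 7.5e-05), and the hepatic lipase gene LIPC (0.45 ± 0.11, adjusted p = 0.0092). LIPG and LIPC belong to the same lipase family as PLA1A and LIPH. Both passed the filter only through libraries with inhibitor, so the filter itself favoured a call as higher with it. Without inhibitor, LIPG reached at most 0.97 FPKM in vehicle and 0.43 with Dox, and LIPC 0.88 and 0.72. LIPG and LIPC also rose with inhibitor in Dox-treated cells (0.47 and 0.62, adjusted p = 0.0076 and 0.0018), where PLA2G15 fell (-0.37, adjusted p = 0.0075). LIPG fell with Dox under inhibitor (-0.77 ± 0.11, adjusted p = 0.0012). It stood at 1.96 to 2.81 FPKM with inhibitor alone and 0.83 to 1.15 with Dox and inhibitor. The filter thus also favoured a call of LIPG as lower with Dox under inhibitor. Of the autotaxin relatives ENPP1, ENPP3, ENPP4, ENPP5 and ENPP7, 2 were tested. ENPP1, an ectoenzyme that makes pyrophosphate, fell with inhibitor without Dox (-0.37 ± 0.07, adjusted p = 0.0022) and rose with Dox both under inhibitor (0.51 ± 0.07, adjusted p = 0.0011) and without it (0.3 ± 0.07, adjusted p = 0.016). The last call ended after quantile normalization and without vehicle replicate 1 or Dox replicate 3. ENPP1 had 2.51 ± 0.09 FPKM with Dox and inhibitor, 2.92 ± 0.2 with Dox, 1.47 ± 0.14 with inhibitor and 2.19 ± 0.13 in vehicle (SD, n = 3 each).

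Of 11 other lysophospholipid receptors 4 were tested, LPAR5, S1PR1, S1PR2 and S1PR5. S1PR1, the S1P receptor known for lymphocyte exit and vessel integrity, fell with inhibitor to 1.21, 1.3 and 1.22 FPKM, against 2.75, 3.03 and 3.54 FPKM in vehicle (-0.87 ± 0.1, adjusted p = 4.5e-05), which is the direction opposite to that of LPAR2. Its differences in the other comparisons with inhibitor (-0.3 in Dox-treated cells and 0.36 for Dox under inhibitor, adjusted p = 0.032 and 0.027) were no longer called after either rescaling. S1PR2 rose with inhibitor without Dox (0.37 ± 0.1, adjusted p = 0.014), a call that ended without vehicle replicate 2 or 3 or inhibitor replicate 2. S1PR5 passed no comparison and stood between 2.38 and 3.1 FPKM in group means. S1PR3 was listed at 0 in all 12 libraries, and S1PR4, GPR34, GPR55, P2RY10 and GPR174 did not reach the filter. GPR34, P2RY10 and GPR174, the receptors known for lysophosphatidylserine, the product of PLA1A, had group means of 0 to 0.32 FPKM.

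Among the listed pathway genes, those of S1P metabolism and export held the largest changes. Of the 8 tested, 2 rose and 2 fell with Dox alone (10.6% of all tested genes higher and 7.31% lower), against 2 and 3 after median-ratio scaling and 3 and 3 after quantile normalization. With inhibitor without Dox 4 rose and 1 fell (11.7% of all genes higher and 26.3% lower), with the same counts after either rescaling. SPHK1, the kinase that makes S1P, stood at 85.9, 92.9 and 87.6 FPKM with Dox and inhibitor against 38, 39.6 and 42.9 with Dox, and at 115.8, 112.3 and 104.8 with inhibitor against 57.3, 49.3 and 47.5 in vehicle. It rose with inhibitor with and without Dox (1.13 ± 0.08 and 1.1 ± 0.08, adjusted p = 1.2e-06 and 1.3e-06) and fell with Dox without inhibitor (-0.34, adjusted p = 0.0088) and with it (-0.32, adjusted p = 0.016), the last a call that ended without inhibitor replicate 2 or Dox with inhibitor replicate 3. SPNS2, the S1P exporter, did likewise, rising by 0.58 ± 0.07 and 0.78 ± 0.07 with inhibitor (adjusted p = 0.00011 and 1e-05) and falling with Dox (-0.32, adjusted p = 0.0092, and -0.52 under inhibitor, adjusted p = 0.00079). SGPL1, the gene of the lyase that degrades S1P, named after its values were seen, was also higher with inhibitor. It stood at 20.9 FPKM with Dox and inhibitor against 15.6 with Dox, and at 21.2 with inhibitor against 17.6 in vehicle, with no overlap in either pair. ASAH1, the lysosomal acid ceramidase that releases sphingosine, rose with Dox to 56.4 ± 3 FPKM, against 18.4 ± 3.2 in vehicle (SD, n = 3 each; 1.57 ± 0.13, adjusted p = 9.7e-06). Under inhibitor it rose with Dox by 0.52 ± 0.13 (adjusted p = 0.018), a call that ended without inhibitor replicate 1 or Dox with inhibitor replicate 2 or 3, and in the interaction its Dox change was smaller with inhibitor (-1.05 ± 0.18, adjusted p = 0.0091). ASAH1 also rose with inhibitor without Dox (0.78 ± 0.13, adjusted p = 0.00064). CERS2, a ceramide synthase, fell with inhibitor (-0.57 ± 0.07 and -0.58 ± 0.07 without and with Dox, adjusted p = 9.9e-05 and 0.00011). SPNS1, though counted on this list, is a lysosomal transporter of lysophospholipids. It was 1 of the 2 that rose with Dox alone (0.47 ± 0.1, adjusted p = 0.006). With inhibitor in Dox-treated cells SPNS1 fell (-0.57 ± 0.1, adjusted p = 0.0011).

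**Figure D4:**
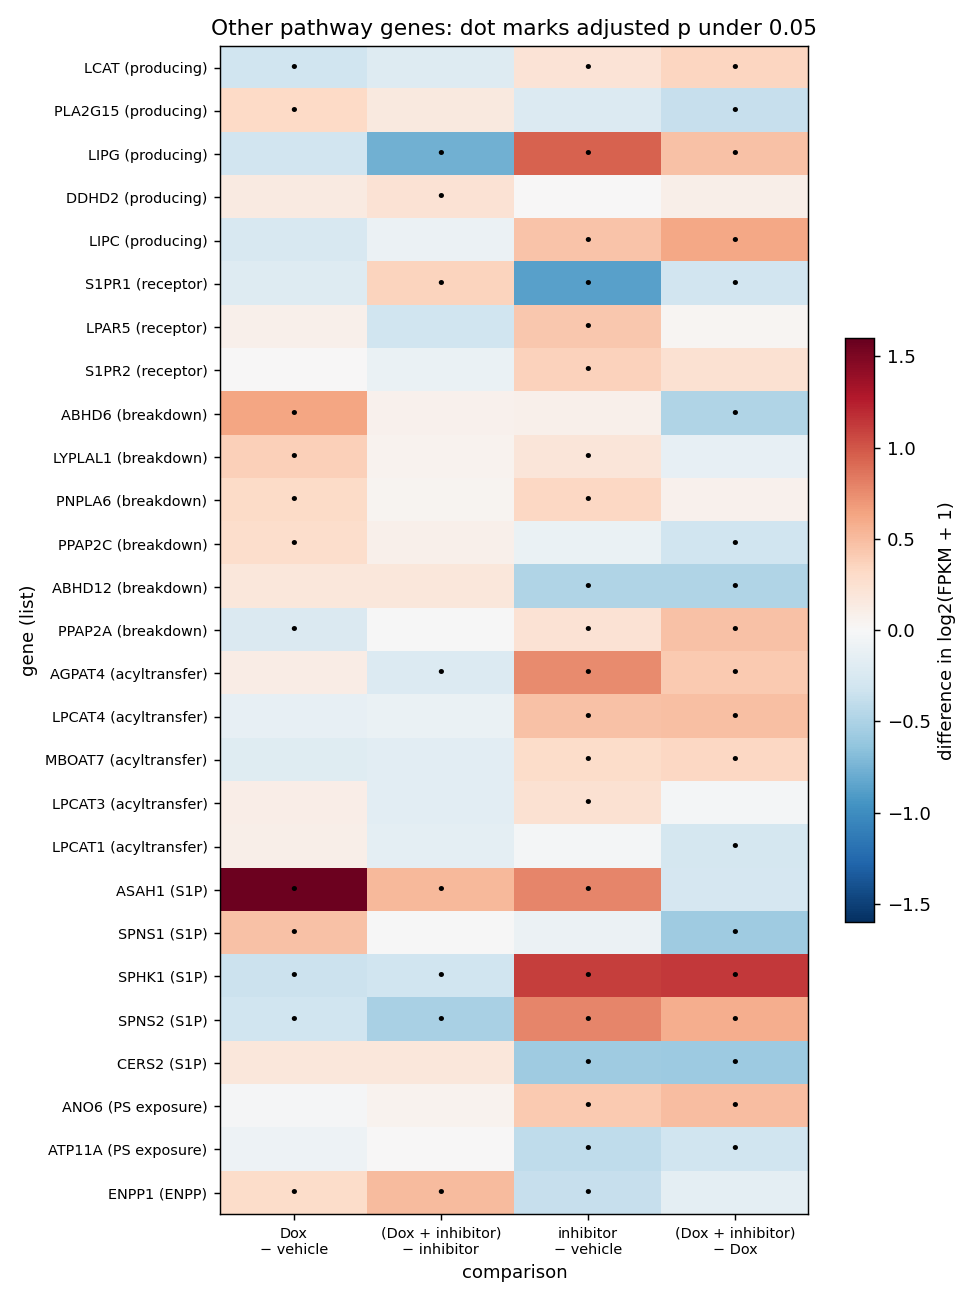
Differences in log2(FPKM + 1) (colour) for the named genes of the pathway lists in the 4 comparisons of groups, with a dot where the limma adjusted p was under 0.05. SPHK1, SPNS2, AGPAT4 and LPCAT4 were among the genes that rose in both inhibitor columns, and ASAH1 (1.57) rose most with Dox alone.

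Among 9 tested genes for lysophospholipid breakdown, 4 rose and 1 fell with Dox alone (10.6% of all tested genes higher and 7.31% lower), against 2 and 1 after median-ratio scaling and 5 and 1 after quantile normalization. ABHD6, a monoacylglycerol and lysophospholipid hydrolase, rose by 0.63 ± 0.08 (adjusted p = 0.00032) and LYPLAL1 by 0.39 ± 0.06 (adjusted p = 0.0013). In Dox-treated cells ABHD6 fell with inhibitor (-0.48 ± 0.08, adjusted p = 0.0011), and its Dox change was smaller with inhibitor (-0.57 ± 0.12, adjusted p = 0.025), a call lost under quantile normalization and on leaving out any of 9 of the 12 libraries. PPAP2A, an older symbol of PLPP1, a surface phosphatase that degrades LPA, rose with inhibitor in Dox-treated cells (0.47 ± 0.07, adjusted p = 0.00055) and without Dox (0.24 ± 0.07, adjusted p = 0.025), the last a call that ended without vehicle replicate 2 or 3 or inhibitor replicate 1 or 2. It was the gene that fell with Dox alone (-0.24 ± 0.07, adjusted p = 0.045), named for this comparison after its values were seen, and that call ended with no filter and on leaving out any of 9 of the 12 libraries. PPAP2C, on the same list, had higher FPKM and went the other way. Without rescaling it was called higher for Dox alone and lower for inhibitor in Dox-treated cells. Its FPKM was 31.5 ± 1.9 with Dox and inhibitor, 39.3 ± 2.6 with Dox, 29.9 ± 3.1 with inhibitor and 32.2 ± 2.2 in vehicle (SD, n = 3 each). ABHD12, a lysophosphatidylserine lipase, fell with inhibitor in both settings (-0.49 and -0.48, adjusted p = 0.00017 and 0.00021). Of 13 tested acyltransferases, which turn lysophospholipids back into phospholipids, 5 rose and none fell with inhibitor without Dox by limma (5 and 0 at an unadjusted p under 0.05), beside 11.7% of all tested genes higher and 26.3% lower, and the counts were 5 and 0 after either rescaling. They were led by AGPAT4 (0.76 ± 0.06, adjusted p = 2.9e-06), LPCAT4 (0.46 ± 0.1, adjusted p = 0.0034) and MBOAT7 (0.3 ± 0.08, adjusted p = 0.0098). With inhibitor in Dox-treated cells 3 rose and 1 fell (11.3% of all genes higher and 20.8% lower), against 4 and 0 after median-ratio scaling and 4 and 1 after quantile normalization. The median over the 13 was 0.05 without Dox, beside -0.12 for all genes.

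Of 5 genes for phosphatidylserine exposure, which supplies the substrate of PLA1A, the scramblase gene ANO6 rose with inhibitor (0.42 ± 0.07 without Dox, adjusted p = 0.00054) and the flippase gene ATP11A fell (-0.41 ± 0.06, adjusted p = 0.00047). With Dox alone none of these 5 was called by limma, with 0 at an unadjusted p under 0.05. Over all tested genes, 17.9% were called for Dox against vehicle and 38% for inhibitor against vehicle, so nothing is read from either count.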

How the data were processed

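Poly(A) RNA from 12 HK-2 libraries, 3 in each of 4 groups set by the treatment label, was measured. The authors deposited 1 table of FPKM values rounded to 2 decimals, whose column names shorten the sample titles. Per the submitters' processing notes, Trim Galore 0.6.7 and Salmon 1.9.0 and the builds GRCh38.p13 and hg38 were named without role or order, and neither the annotation nor the FPKM calculation is stated. Read depth is unknown, so no counting intervals were made. Values were used as log2(FPKM + 1), without rescaling, in limma 3.58.1 (R 4.3.3), with 4 group means, 8 residual degrees of freedom, empirical Bayes moderation and an intensity trend. Of 26334 genes, 12649 (48%) reached 1 FPKM in at least 3 libraries and were tested. The 7 genes and all lists were chosen with earlier results of these data known. The genes named were the 7, up to 4 called genes per list and comparison, every receptor listed, and the 3 closest matches in level, and PPAP2A and PPAP2C are older symbols. Results for 1 pathway list and 1 closest match are not reported here. The model was tested on simulated data for Dox against vehicle over 12649 genes, where it recovered 143 of 200 genes changed by 0.5 and 187 of 200 changed by 1 (log2), with 7 and 14 false calls. The simulated noise was independent between libraries, so this check does not cover the correlated deviations of same-numbered libraries given below. Alternatives were another pseudocount, 2 other filters, median-ratio scaling, quantile normalization, a replicate block and leaving out each library.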

Additional observations from a re-analysis of the deposited data

Results flagged for a closer look

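Among the named genes of the pathway lists, 2 had a Dox change that differed between cells with and without the inhibitor in the limma test of the difference itself, a test that called 357 of 12649 genes, TFE3 among them. PLA1A was also called. It was chosen with its values known and passed the filter only through libraries with Dox, so nothing is read from that call. ASAH1 had a difference of -1.05 ± 0.18 (adjusted p = 0.0091), with 46.7 ± 5 FPKM for Dox with inhibitor, 56.4 ± 3 for Dox, 32.3 ± 3.9 for inhibitor and 18.4 ± 3.2 in vehicle (SD, n = 3 each). ABHD6 had a difference of -0.569 ± 0.12 (adjusted p = 0.025), with 2.7 ± 0.27 FPKM for Dox with inhibitor, 4.17 ± 0.3 for Dox, 2.53 ± 0.1 for inhibitor and 2.34 ± 0.27 in vehicle (SD, n = 3 each). The ABHD6 call was lost under quantile normalization and on leaving out any of 9 of the 12 libraries, the TFE3 call on leaving out any of 7, and the ASAH1 call was kept in every alternative run. The PLA1A call ended with a pseudocount of 0.1. It also ended without any one of vehicle replicate 2, Dox replicates 2 or 3, or Dox with inhibitor replicates 1 or 3.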

How the results depend on the processing

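With the replicate number as a replicate block, 3741 genes were called for Dox against vehicle (2269 without it), 4548 for Dox with inhibitor against inhibitor alone (2304) and 666 for the interaction (357). The labels give shared numbers but no shared batch. Deviations of same-numbered libraries correlated at -0.09 to 0.69, over 0.1 in 9 of 18 pairs. Those of differently numbered libraries in different groups correlated at -0.59 to 0.24, over 0.1 in 10 of 36 pairs. Of the 12 libraries, 8 correlated best with their own number. The block left the calls of the 5 tested members and of the named pathway genes in place. Leaving out 1 library at a time gave 1388 to 2667 called genes for Dox against vehicle, 1128 to 2928 for Dox under inhibitor and 174 to 420 for the interaction. The count for Dox against vehicle fell by over 1.5 times without vehicle replicate 2 or Dox replicate 3. That for Dox under inhibitor did so without inhibitor replicate 2 or Dox with inhibitor replicates 2 or 3. That for the interaction did so without vehicle replicate 2, any Dox replicate, inhibitor replicate 2 or Dox with inhibitor replicates 2 or 3. Over these alternatives no called difference of the 5 tested members or of the named pathway genes changed sign. Of 71 calls in the pathway lists, including the list not reported here, 11 were lost with median-ratio scaling, 8 with quantile normalization, 5 with no filter and 4 to 13 without 1 library. A pseudocount of 0.1 ended none of the 71 and moved 11 of 25 member differences by more than the residual SD. Among them were PLA1A for Dox against vehicle, at 2.48 (1.64 as reported), and ENPP2 for inhibitor against vehicle, at -2.08 (-1.74). A mean FPKM of at least 5 kept only ENPP2 and LIPH of the 7. The unknown depth limits what can be said of LPAR1, LPAR6 and the receptors listed near 0.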
